A study of Mus musculus with 22 samples.

Results

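The livers of mice given rAAV9-ST3GAL5.v1, labelled rAAV9.CB.ST3GAL5, were compared with the livers of mice given AAV9.empty, the AAV9 capsid with no genome. These are 7 of the 22 livers of the series, 3 with the vector and 4 with the empty capsid, taken by their treatment label. All were from male WT C57BL/6 mice with an intact mouse St3gal5 gene, injected on postnatal day 1 and collected 36 hours later. In rAAV9-ST3GAL5.v1 the ubiquitous CB promoter drives a human ST3GAL5 cDNA, which encodes the sialyltransferase that makes the ganglioside GM3. In the paper the vector and the empty capsid were given to WT mice through the facial vein, and its methods state a dose per pup for that route. Neither the dose in these RNA-Seq livers nor the litter of each pup is given in the labels, so the p-values rest on the variation among these 7 animals. The comparison asks what the vector changed in the liver transcriptome beyond the capsid alone. Promoter, cDNA and genome differ between the groups together and cannot be told apart in this comparison.

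Poly(A) RNA was sequenced and the authors deposited RSEM expected counts, which sum to 18431040 to 22769658 per vector library and 18500161 to 21841146 per control library. Levels below are CPM, counts scaled to a common library size with TMM factors over the series, and not corrected for gene length. The markers of the labelled tissue were abundant. Hepatocyte markers summed to 54120 to 65230 CPM with the vector and 78970 to 95260 CPM with the capsid, and globin and other erythroid markers, abundant in newborn liver, to 39020 to 45590 and 37870 to 47180 CPM. The 10 most abundant genes held 17.95% to 18.74% of the counts with the vector and 21.72% to 23.01% with the capsid. Gm47283, a gene on the Y chromosome, was at 0, 0 and 0 CPM in the vector livers and 21.2, 20.1, 12.5 and 0 CPM in the control livers, and Erdr1 was at 0, 0 and 0 CPM in the vector livers and 4.77, 8.06, 4.43 and 0 CPM in the control livers. Both were at 0 in the vector livers and in AAV9.empty replicate 4 alone among the controls. The labels do not say what sets these livers apart, and the part of it in the results was not tested. Against that liver alone, a comparison chosen after seeing the data and without a test, the median log2 difference was −0.43 for hepatocyte markers, −0.07 for coagulation, −0.10 for complement and −0.32 for cholesterol genes, where with all 4 controls it was −0.65, −0.22, −0.25 and −0.05. Mouse St3gal5 was at 151, 113 and 181 CPM with rAAV9-ST3GAL5.v1 and 192, 191, 178 and 182 CPM with AAV9.empty, and the groups overlapped (log2 fold change −0.31, SE 0.135, adjusted p = 0.121). It passed when liver 3 with the vector was left out, at −0.47 (adjusted p = 0.0184). Reads of the human cDNA were not analysed here.

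Hepatocytes carry most of the metabolic work of the liver: they make plasma proteins and bile acids, burn fatty acids, break down amino acids and modify drugs through cytochrome P450 and conjugating enzymes. Their identity is held by a network of transcription factors, among them HNF4A, the FOXA proteins and C/EBPα, and their tasks are divided between cells near the portal vein and cells near the central vein. Stressed cells use several known programs. ATF4 and its partner CHOP raise genes of amino acid supply and cell death when translation is checked by phosphorylation of eIF2α. XBP1 and ATF6 raise chaperones when proteins misfold in the endoplasmic reticulum (ER), HSF1 raises heat shock proteins, and NRF2 raises genes against oxidants.

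Of 14876 genes tested, 4183 (28.1%) passed an adjusted p of at most 0.05, with 2049 (13.8%) higher and 2134 (14.3%) lower with the vector. These passing genes are called below, and 1190 of them (8% of those tested) also changed at least 2-fold, 627 (4.21%) higher and 563 (3.78%) lower. The values of the 3 vector livers and of the 4 control livers did not overlap for 5576 genes (37.5%). Where a gene list below has 0 members called in a direction by edgeR, at most 2 of its members had an unadjusted p of at most 0.05 in that direction, and DESeq2 called at most 1. The vector livers were graded. Over the raised genes the median log2 difference from the control mean was 1.26, 1.74 and 1.04 in livers 1, 2 and 3, and over the lowered genes −1.33, −1.43 and −0.93. Liver 2 held the highest value for 451 of the 627 raised genes and the lowest for 319 of the 563 lowered genes, and liver 3 for 71 and 31. Correlations of log2 CPM with the control livers ran from 0.954 to 0.964 for liver 3, 0.929 to 0.946 for liver 1 and 0.893 to 0.905 for liver 2, over 10814 genes within pairs of libraries, which are not independent replicates. The highest of each range was with AAV9.empty replicate 4, the control without Gm47283 and Erdr1 counts. With the other controls they ran from 0.9544 to 0.9555, 0.9294 to 0.9303 and 0.893 to 0.8951 for livers 3, 1 and 2. The part of that trait in the correlations was not tested. The plot of level against change shows changed genes over most of the range of levels, but not among the few most abundant genes, and the plot of gene lists by liver shows their medians in each vector liver.

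**Figure D1:**
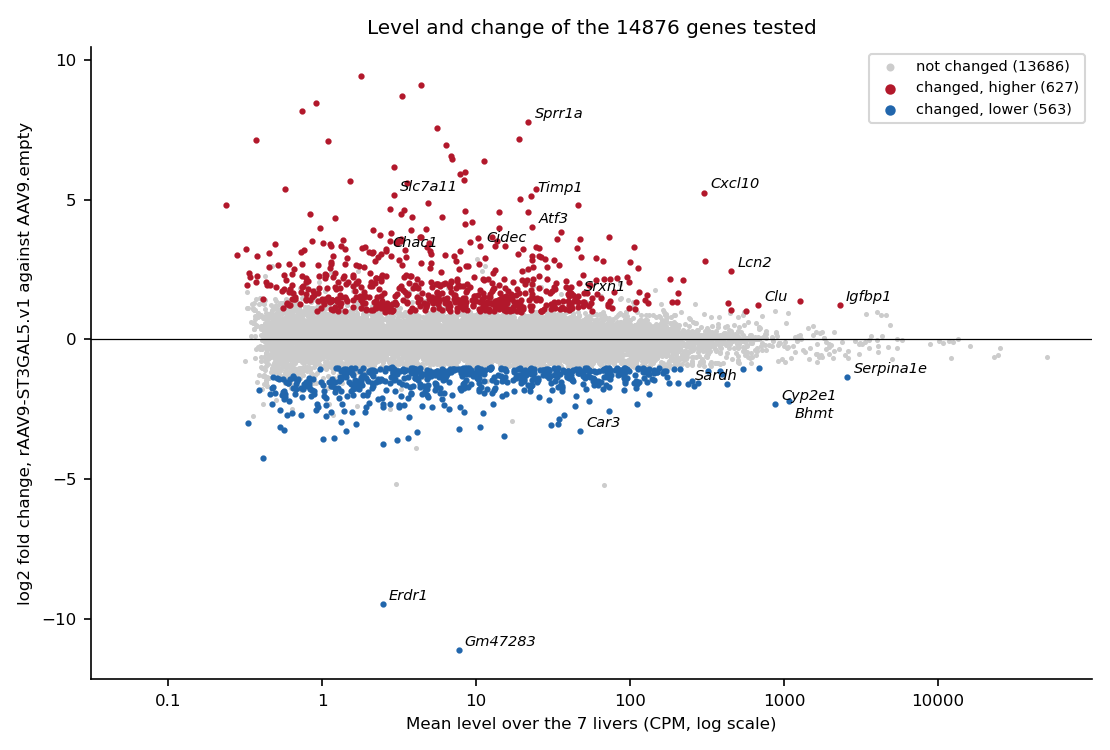
Mean level over the 7 livers (x axis, CPM, log scale) and log2 fold change from edgeR (y axis) for each gene tested, with the 627 genes raised at least 2-fold in red, the 563 lowered in blue and the others in grey. Timp1 and Atf3 stand above 4, the abundant genes Cyp2e1 and Bhmt lie below −2, and the lowest points, Gm47283 and Erdr1, had no count in any vector liver or in AAV9.empty replicate 4.

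**Figure D2:**
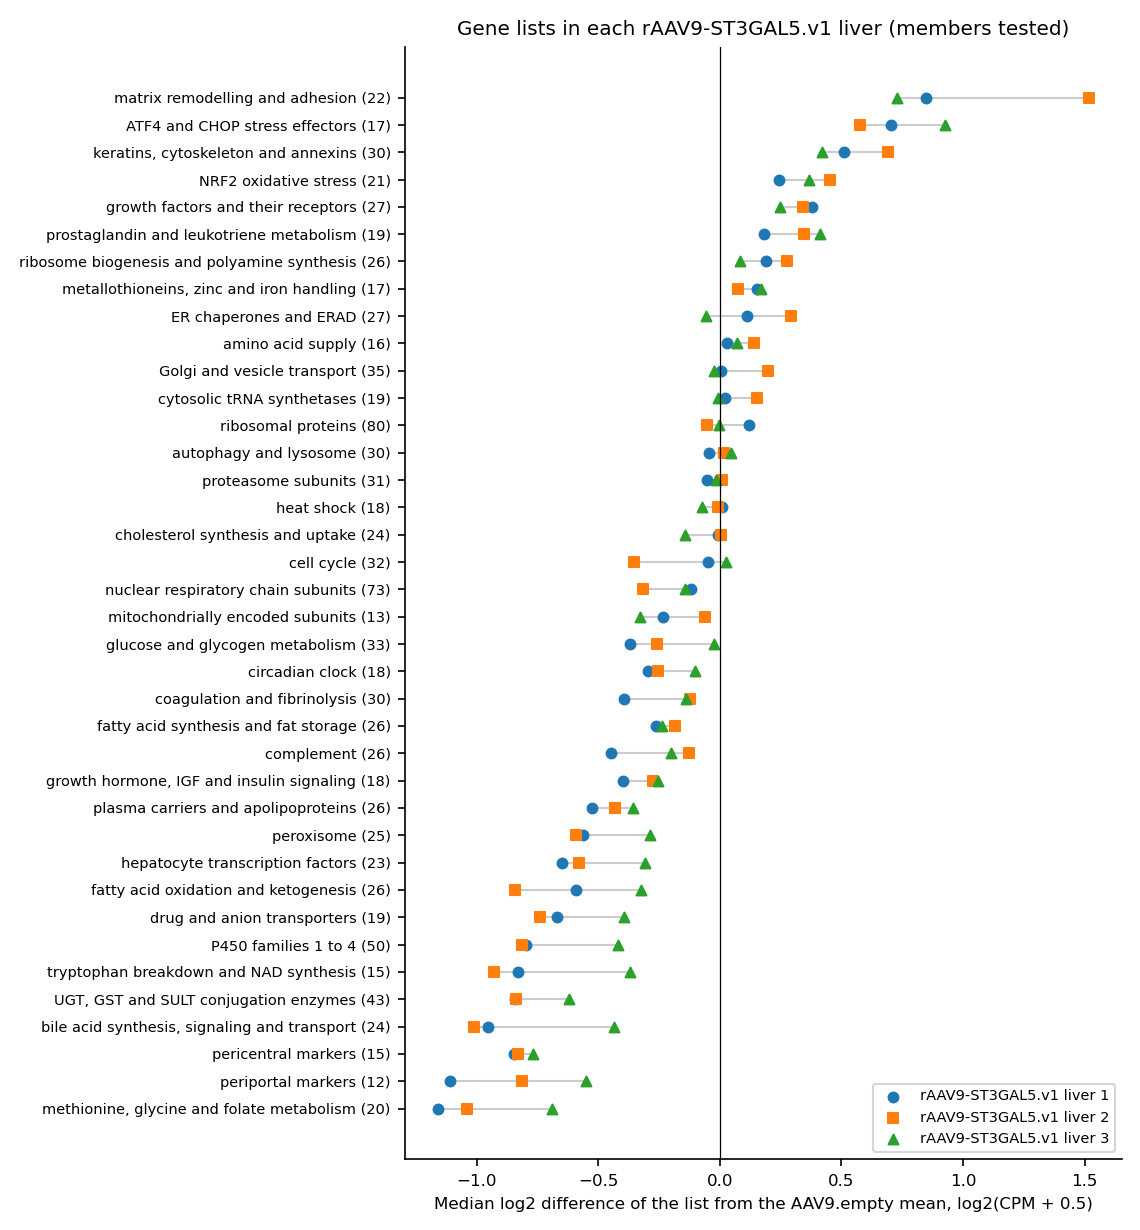
Median log2 difference of 38 gene lists from the AAV9.empty mean in each rAAV9-ST3GAL5.v1 liver (x axis, log2(CPM + 0.5)), 1 marker shape per liver, with the number of members tested in brackets. Matrix and ATF4-CHOP genes stand to the right of 0 in all 3 livers, and methionine, bile acid and zonation genes to the left, with liver 3 nearest to 0 for most of the lowered lists.

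Most genes in the list of ATF4 and CHOP stress effectors, which holds Ddit3 itself, were called higher, while the Atf4 message did not pass. Whether ATF4 or CHOP acted on them was not measured. Of 17 effectors tested, 11 were called higher and Atf5, a related factor, lower, with a median log2 fold change of 0.78, against 0.02 over all genes tested. Atf3, a stress-induced repressor (chromosome 1, 191170296 to 191218039 in GRCm38), was at 50.3, 61.6 and 38.2 CPM with rAAV9-ST3GAL5.v1 and 2.76, 2.35, 1.89 and 5.34 CPM with AAV9.empty (log2 fold change 4.02, SE 0.305, adjusted p = 0.000114). Chac1, which degrades glutathione (chromosome 2, 119351229 to 119354381 in GRCm38), was at 5.51, 4.91 and 5.32 CPM with rAAV9-ST3GAL5.v1 and 0.561, 0.837, 0.486 and 0.485 CPM with AAV9.empty (log2 fold change 3.15, SE 0.243, adjusted p = 0.000115). Every vector liver lay far above every control liver for both genes. Nupr1, a stress-induced chromatin protein, was at 13.5, 11.1 and 9.98 CPM in the vector livers and 2.8, 2.41, 4.32 and 2.62 CPM in the control livers (log2 fold change 1.94, SE 0.216, adjusted p = 0.000405). Ddit3, which encodes CHOP, was at 32.6, 22 and 27.4 CPM in the vector livers and 8.97, 6.91, 10.4 and 11.5 CPM in the control livers (log2 fold change 1.55, SE 0.183, adjusted p = 0.000537). Liver 2, the most changed of the 3, was the lowest vector liver for Chac1 and Ddit3, and the groups did not overlap for any of these 4 genes. Atf4 had a log2 fold change of 0.36 (adjusted p = 0.0512), and 0.46 (adjusted p = 0.015) without rAAV9-ST3GAL5.v1 replicate 3.

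The core of the C/EBP-ATF response element to which ATF4 binds, TGATGNAA, was searched on both strands in windows of RefSeq promoters (GRCm38.p6) from 250 bases before to 50 after the gene start. It lies in 4.51% of 27025 promoters, in 6 of 16 promoters of the ATF4 and CHOP effectors and in 4 of 14 of amino acid supply. Of these 10 genes, Atf3, Chac1, Nupr1, Trib3 and Slc7a11 were called higher, and Vldlr, Fgf21, Asns, Pycr1 and Slc1a4 did not pass. Without rAAV9-ST3GAL5.v1 replicate 3, Slc1a4 passed at −0.67 (adjusted p = 0.00284). Among genes changed at least 2-fold the core lies in 29 of 460 promoters of raised genes (6.3%) and 9 of 404 of lowered genes (2.23%). Of the promoters of all genes tested, 2.83% hold it. A match is a run of letters and not a measured binding site. The windows of 3 raised genes and of Asns, a standard ATF4 target that did not pass, are shown 5′ to 3′ on the strand of the gene with the core or its reverse complement in capitals, at chr2:119351019-119351086 (plus strand), chr1:191183406-191183473, chr7:126625543-126625610 and chr6:7693195-7693262 (minus strand).
Chac1: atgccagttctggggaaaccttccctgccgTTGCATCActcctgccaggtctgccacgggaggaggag
Atf3: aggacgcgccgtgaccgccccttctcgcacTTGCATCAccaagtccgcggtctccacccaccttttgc
Nupr1: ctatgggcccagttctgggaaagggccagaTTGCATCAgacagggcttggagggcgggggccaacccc
Asns: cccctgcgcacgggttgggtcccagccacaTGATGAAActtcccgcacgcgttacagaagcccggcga

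Genes of amino acid supply moved in both directions. Of 16 genes, 6 were called higher and 2 lower, with a median log2 fold change of 0.14, and raised members numbered 3 without rAAV9-ST3GAL5.v1 replicate 1. Slc7a11, the cystine transporter, was at 5.8, 11.5 and 2.35 CPM with rAAV9-ST3GAL5.v1 and 0.14, 0.366, 0.162 and 0.0485 CPM with AAV9.empty (log2 fold change 5.18, SE 0.649, adjusted p = 0.000705). It was raised in each vector liver and highest in liver 2, without which the log2 fold change was 4.49 (adjusted p = 0.00037). Slc38a2 and Slc7a1, transporters of neutral and cationic amino acids, had log2 fold changes of 0.68 (adjusted p = 0.000859) and 0.51 (adjusted p = 0.00379). Asns, asparagine synthetase, was at 74.4, 74.4 and 71.7 CPM in the vector livers and 91.9, 85.4, 73.5 and 74 CPM in the control livers and the groups overlapped (log2 fold change −0.13, SE 0.0953, adjusted p = 0.343). The serine pathway enzymes Shmt2 and Phgdh were the called members that fell, at −0.58 (adjusted p = 0.00272) and −0.41 (adjusted p = 0.0315), and the call of Phgdh was lost without rAAV9-ST3GAL5.v1 replicate 1 or 2 or 3 or AAV9.empty replicate 1 or 2 (adjusted p = 0.0557 to 0.0792). Of 19 cytosolic tRNA synthetases, Nars, Sars and Qars were called, at 0.36, 0.30 and 0.23, and the count was 0 without rAAV9-ST3GAL5.v1 replicate 1 or 2 or AAV9.empty replicate 2 or 3 or 4, and 1 without AAV9.empty replicate 1.

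Genes of ER chaperones and degradation were called at about the share of all genes tested, and sensors of ER stress rose. Of 27 genes of ER chaperones and degradation, 7 were called higher and Sel1l lower, with a median of 0.15. In either direction 29.63% were called, against 28.1% of all genes tested. The raised count was 4 without rAAV9-ST3GAL5.v1 replicate 1 or AAV9.empty replicate 3 or 4, and 11 without rAAV9-ST3GAL5.v1 replicate 3, and the lower count 3 without rAAV9-ST3GAL5.v1 replicate 2. Eif2ak3, which encodes the eIF2α kinase PERK, was at 57.5, 55.7 and 45.9 CPM with rAAV9-ST3GAL5.v1 and 25.6, 24.3, 26.7 and 32.3 CPM with AAV9.empty (log2 fold change 0.97, SE 0.12, adjusted p = 0.000647), with every vector liver above every control liver. Dnajb9, an ER co-chaperone, and Atf6 and Xbp1, transcription factors of the ER response, had log2 fold changes of 0.76 (adjusted p = 0.00362), 0.49 (adjusted p = 0.0118) and 0.59 (adjusted p = 0.0252). Hspa5, the main ER chaperone BiP, was at 922, 1190.5 and 774 CPM in the vector livers and 829, 922, 765 and 796 CPM in the control livers (log2 fold change 0.23, SE 0.14, adjusted p = 0.253), and these values overlapped. The ER stress element, CCAAT and CCACG with 9 bases between them, lies in 0.137% of all promoters on either strand and in 9 of 23 of this list. Of those 9 genes, Derl3 and Syvn1, parts of the degradation machinery, were called higher, and Hspa5, Hsp90b1, Calr, Canx, Pdia6, Dnajc3 and Creld2 did not pass. Derl3 was low, at 1.53, 2.21 and 0.568 CPM in the vector livers and 0.467, 0.366, 0.27 and 0.583 CPM in the control livers (log2 fold change 1.75, SE 0.496, adjusted p = 0.0278), and its values overlapped. Its call was lost without rAAV9-ST3GAL5.v1 replicate 1 or 2 or AAV9.empty replicate 1 or 2 or 3 (adjusted p = 0.0606 to 0.114). The call of Xbp1 was lost without rAAV9-ST3GAL5.v1 replicate 1 or AAV9.empty replicate 1 or 2 or 3 or 4 (adjusted p = 0.0525 to 0.0701), and that of Syvn1 without AAV9.empty replicate 2 or 3 or 4 (adjusted p = 0.0545 to 0.0594). Hspa5 and Creld2 passed without rAAV9-ST3GAL5.v1 replicate 3, at 0.37 (adjusted p = 0.0467) and 0.78 (adjusted p = 0.00826), and Hsp90b1 without replicate 2, at −0.32 (adjusted p = 0.0366). The window of Hspa5, shown because its chaperone gene carries the element and did not pass, is on the plus strand at chr2:34771995-34772073, with the element in capitals.
Hspa5: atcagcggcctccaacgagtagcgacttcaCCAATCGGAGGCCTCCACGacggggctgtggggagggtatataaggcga

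In the Golgi and vesicle list, 9 of 35 genes were called higher and 4 lower, the higher count being 5 without AAV9.empty replicate 2, and the lower count 2 without rAAV9-ST3GAL5.v1 replicate 1. The share called in that list was 37.14%, against 28.1% of all genes tested. Kdelr3, a receptor that returns ER proteins from the Golgi, was at 14, 16.4 and 9.82 CPM with rAAV9-ST3GAL5.v1 and 2.99, 3.56, 3.84 and 3.93 CPM with AAV9.empty (log2 fold change 1.92, SE 0.196, adjusted p = 0.000243), with no overlap. Creb3l2, a transcription factor of secretory stress, had a log2 fold change of 0.63 (adjusted p = 0.00825), and Mgat1 and Man2a1, which trim and extend N-glycans, fell, at −0.49 (adjusted p = 0.00379) and −0.40 (adjusted p = 0.00884), as did Kdelr1 and Usp20. The call of Kdelr1 was lost without rAAV9-ST3GAL5.v1 replicate 1 or 3 or AAV9.empty replicate 1 or 2 or 3 or 4 (adjusted p = 0.0519 to 0.14), and that of Usp20 without rAAV9-ST3GAL5.v1 replicate 1 (adjusted p = 0.0647). Heat shock genes moved both ways. Of 18, Hspa1b, Bag3, Hspb8 and Hspa4l were called higher and Hspd1, Dnaja1, Hsph1 and Hspe1 lower, the lower count being 2 without rAAV9-ST3GAL5.v1 replicate 2 or 3 or AAV9.empty replicate 1 or 3. The call of Hspa4l was lost without rAAV9-ST3GAL5.v1 replicate 1 or AAV9.empty replicate 3 (adjusted p = 0.0505 to 0.0744), that of Hsph1 without rAAV9-ST3GAL5.v1 replicate 1 or 2 or 3 or AAV9.empty replicate 1 or 2 or 3 (adjusted p = 0.0542 to 0.117) and that of Hspe1 without rAAV9-ST3GAL5.v1 replicate 2 or 3 or AAV9.empty replicate 1 or 3 or 4 (adjusted p = 0.0539 to 0.0822). Hspa1b, an inducible cytosolic chaperone, had a log2 fold change of 1.33 (adjusted p = 0.00369), and Hspd1, the mitochondrial chaperonin, −0.50 (adjusted p = 0.00209). The heat shock element lies in 4 of 13 promoters of this list, those of Hsph1, Hspd1, Hspe1 and Chordc1, and in 0.662% of all, and none of these 4 was called higher. Of 31 proteasome subunits only Psmd8 was called, at 0.45, and of 80 ribosomal protein genes only Rps27l, a p53 target, at 0.69. Both counts were 2 without rAAV9-ST3GAL5.v1 replicate 2, and the ribosomal count also without replicate 3. Of 26 genes of ribosome biogenesis and polyamine synthesis 5 were called, Myc, Wdr43, Gnl3, Ddx21 and Utp20, each higher, with Myc at 0.92 (adjusted p = 0.00241), and the count was 2 without rAAV9-ST3GAL5.v1 replicate 1 or AAV9.empty replicate 1, and 3 without AAV9.empty replicate 3, and 10 without rAAV9-ST3GAL5.v1 replicate 3. The call of Wdr43 was lost without rAAV9-ST3GAL5.v1 replicate 1 or AAV9.empty replicate 1 or 3 (adjusted p = 0.0508 to 0.0594), that of Ddx21 without rAAV9-ST3GAL5.v1 replicate 1 or AAV9.empty replicate 1 (adjusted p = 0.052 to 0.0636) and that of Utp20 without rAAV9-ST3GAL5.v1 replicate 1 or 2 or AAV9.empty replicate 1 or 3 or 4 (adjusted p = 0.0561 to 0.0861).

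Of 21 genes tested in the NRF2 oxidative stress list, 12 were called higher and 0 lower, and 9 did not pass, with a median log2 fold change of 0.39. The list includes Slc7a11, at 5.18 (adjusted p = 0.000705), which is also counted in the amino acid list. Srxn1, sulfiredoxin, which repairs oxidized peroxiredoxins (chromosome 2, 152105516 to 152111376 in GRCm38), was at 81.2, 70 and 68.7 CPM with rAAV9-ST3GAL5.v1 and 23.6, 22.4, 24.8 and 28.5 CPM with AAV9.empty (log2 fold change 1.57, SE 0.103, adjusted p = 5.15e-05). Nfe2l2, which encodes NRF2, was at 84.4, 85.2 and 83.5 CPM with rAAV9-ST3GAL5.v1 and 51.2, 49, 48.7 and 48.7 CPM with AAV9.empty (log2 fold change 0.78, SE 0.0665, adjusted p = 0.000136). Both genes were higher in each vector liver than in each control liver. Maff, a small MAF partner of NRF2, had a log2 fold change of 2.58 (adjusted p = 0.000314), and Hmox1, heme oxygenase 1, 0.99 (adjusted p = 0.000803). Nqo1, a standard NRF2 target, had 0.13 (adjusted p = 0.648), and Gclm, a subunit of glutathione synthesis, 0.00 (adjusted p = 0.992). The antioxidant response element core TGACNNNGC is common, in 14% of all promoters, and lies in 9 of 18 of this list. It is in 16.8% of the promoters of genes tested, 16.7% of those raised at least 2-fold and 14.9% of those lowered. Of the 9 genes, Gclm, Me1 and Prdx1 did not pass, and the others were called higher. The element is shown for Srxn1 on the plus strand at chr2:152105522-152105573, in capitals as the reverse complement.
Srxn1: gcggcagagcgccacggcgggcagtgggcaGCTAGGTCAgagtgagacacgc

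**Figure D3:**
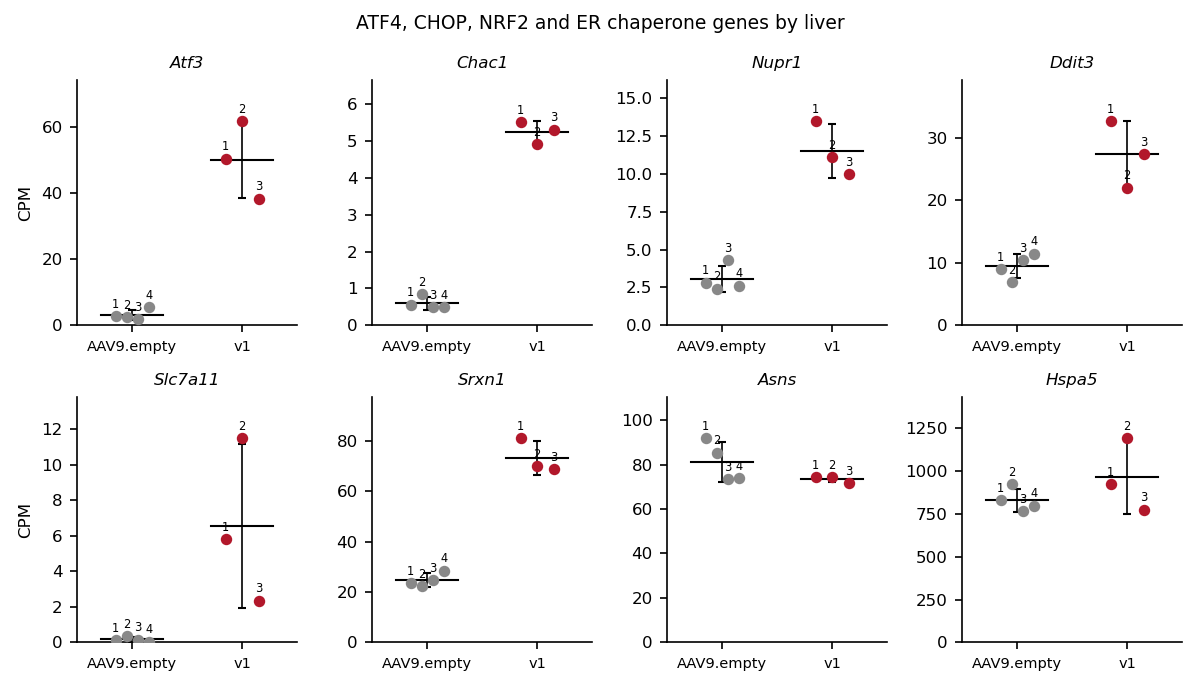
CPM (y axis, from 0) of stress response genes in each liver, numbered by replicate, with the mean and SD of 4 AAV9.empty livers in grey and 3 rAAV9-ST3GAL5.v1 livers (v1) in red. Atf3, Chac1, Nupr1, Ddit3, Slc7a11 and Srxn1 do not overlap between the groups, and Asns and Hspa5 do.

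Zinc and iron genes split. Of 17, Steap4, Hamp, Mt2 and Slc39a14 were called higher and Slc39a5, Slc40a1 and Trf lower, the higher count being 2 without AAV9.empty replicate 2, and the lower count 5 without rAAV9-ST3GAL5.v1 replicate 3. Hamp, hepcidin, the hormone that closes the iron exporter ferroportin, was at 240.1, 588 and 175 CPM with rAAV9-ST3GAL5.v1 and 83.5, 146, 116 and 84.1 CPM with AAV9.empty (log2 fold change 1.66, SE 0.376, adjusted p = 0.0107). Steap4, a metalloreductase induced in inflammation, was at 214, 619.7 and 152 CPM in the vector livers and 78.8, 61.8, 71.6 and 81.5 CPM in the control livers (log2 fold change 2.18, SE 0.403, adjusted p = 0.00418). Liver 2 was far above the others for both, and without it the log2 fold changes were 0.96 (adjusted p = 0.00809) and 1.32 (adjusted p = 0.000163). The call of Mt2, a metallothionein, was lost without rAAV9-ST3GAL5.v1 replicate 2 or AAV9.empty replicate 2 or 4 (adjusted p = 0.0512 to 0.0645), that of Slc39a14 without AAV9.empty replicate 1 or 2 or 3 (adjusted p = 0.0505 to 0.0572) and that of Trf without rAAV9-ST3GAL5.v1 replicate 1 or AAV9.empty replicate 1 or 2 or 3 (adjusted p = 0.0556 to 0.105). Slc40a1, which encodes ferroportin, and Slc39a5, a zinc importer, had log2 fold changes of −0.62 (adjusted p = 0.00574) and −1.18 (adjusted p = 0.00139).

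Hepatocyte functions fell broadly. In a bulk sample, fewer hepatocytes and less of a transcript per hepatocyte cannot be told apart. Hepatocyte markers were themselves lower, with 8 of 9 called lower, Fgb higher, and a median log2 fold change of −0.64, and the lower count was 5 without rAAV9-ST3GAL5.v1 replicate 1. Alb, albumin, had a log2 fold change of −0.64 (adjusted p = 0.00355) and Hnf4a of −0.27 (adjusted p = 0.0406), a call lost without rAAV9-ST3GAL5.v1 replicate 1 or 3 or AAV9.empty replicate 1 or 2 or 3 (adjusted p = 0.0512 to 0.146). Several lists had lower medians. P450 families 1 to 4 had 28 of 50 genes lower and Cyp1b1 higher (median −0.82), and UDP-glucuronosyltransferases, glutathione S-transferases and sulfotransferases 30 of 43 lower and Ugt1a7c higher (median −0.82), a call lost without rAAV9-ST3GAL5.v1 replicate 1 or 2 or AAV9.empty replicate 1 or 2 or 4 (adjusted p = 0.054 to 0.202). Ugt1a7c shares exons with other Ugt1a genes, so its value is uncertain. Cyp2e1, a pericentral P450 that oxidizes ethanol and paracetamol (chromosome 7, 140763739 to 140774987 in GRCm38), was at 221, 256 and 323 CPM with rAAV9-ST3GAL5.v1 and 1408, 1479, 1352 and 1044 CPM with AAV9.empty (log2 fold change −2.30, SE 0.16, adjusted p = 7.05e-05). Cyp1a2, which metabolizes caffeine, was at 3.6, 9.04 and 4.79 CPM with rAAV9-ST3GAL5.v1 and 60.6, 51.8, 48.9 and 35.4 CPM with AAV9.empty (log2 fold change −3.07, SE 0.304, adjusted p = 0.000221). Each control liver was more than 3-fold above each vector liver for both. Cyp2c54 and Cyp4f14 had log2 fold changes of −2.78 (adjusted p = 0.000167) and −3.72 (adjusted p = 0.000385), and among conjugating enzymes Sult2a8, Gstz1 and Sult1a1 −1.86 (adjusted p = 0.000155), −1.05 (adjusted p = 0.000198) and −1.15 (adjusted p = 0.000385). P450, sulfotransferase and glutathione transferase genes have near-identical copies between which reads may be split. Of 19 drug and anion transporters 11 were lower and 0 higher (median −0.70), with 1 higher without rAAV9-ST3GAL5.v1 replicate 2 or AAV9.empty replicate 4. Slc47a1, the exporter MATE1, had a log2 fold change of −1.53 (adjusted p = 0.000215), and Abcc6 had −1.35 (adjusted p = 0.000437).

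Most genes of bile acid synthesis and uptake fell, and exporters were mixed. Of 24 genes, 16 were called lower and Abcc4, a basolateral exporter, higher (median −0.76). The exporters Abcc2, Abcc3, Slc51a, Slc51b and Abcb4 did not pass, at −0.16, −0.69, 0.09, 1.37 and 0.26, while Abcb11, Abcg5 and Abcg8 were called lower. Abcb11, the bile salt export pump, was at 146, 151 and 146 CPM with rAAV9-ST3GAL5.v1 and 249, 258, 218 and 207 CPM with AAV9.empty (log2 fold change −0.65, SE 0.0931, adjusted p = 0.00127). Slco1b2, an uptake transporter, was at 71.1, 72.9 and 119 CPM in the vector livers and 219.5, 196, 206 and 163 CPM in the control livers (log2 fold change −1.15, SE 0.183, adjusted p = 0.00204). Hsd3b7, a synthesis enzyme, and Fgfr4, the receptor of the feedback hormone FGF15, had log2 fold changes of −0.56 (adjusted p = 0.00163) and −0.82 (adjusted p = 0.00155). The groups did not overlap for these 4 genes. The call of Abcc4 was lost without rAAV9-ST3GAL5.v1 replicate 1 or 2 or 3 or AAV9.empty replicate 3 or 4 (adjusted p = 0.0641 to 0.0984).

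Genes of one-carbon metabolism fell. Of 20 genes of methionine, glycine and folate metabolism, 16 were called lower and 0 higher (median −0.86). Bhmt, which remethylates homocysteine with betaine (chromosome 13, 93616675 to 93637961 in GRCm38), was at 203, 339.7 and 503 CPM with rAAV9-ST3GAL5.v1 and 1815, 1718, 1660.3 and 1283 CPM with AAV9.empty (log2 fold change −2.21, SE 0.271, adjusted p = 0.000635). Sardh, sarcosine dehydrogenase, was at 87.2, 119 and 124 CPM with rAAV9-ST3GAL5.v1 and 358, 346, 335 and 299.5 CPM with AAV9.empty (log2 fold change −1.59, SE 0.129, adjusted p = 0.000135). Neither gene had a vector liver near a control liver. Gnmt, which methylates glycine, and Gldc and Gcsh, of the glycine cleavage system, had log2 fold changes of −1.55 (adjusted p = 0.000233), −1.15 (adjusted p = 0.000161) and −0.83 (adjusted p = 0.000169). Of 15 genes of tryptophan breakdown and NAD synthesis 9 were lower and 0 higher, with 1 higher without rAAV9-ST3GAL5.v1 replicate 3. Afmid, Kynu and Haao, enzymes of the kynurenine route, had log2 fold changes of −1.31 (adjusted p = 0.000359), −1.06 (adjusted p = 0.000403) and −1.25 (adjusted p = 0.000461). Of 25 peroxisome genes 15 were lower and 0 higher (median −0.46). Agxt, which detoxifies glyoxylate, was at 97.5, 128 and 145 CPM in the vector livers and 389, 353, 355 and 303 CPM in the control livers (log2 fold change −1.49, SE 0.14, adjusted p = 0.000194), and Pex5, the import receptor, had −0.71 (adjusted p = 0.000592).

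**Figure D4:**
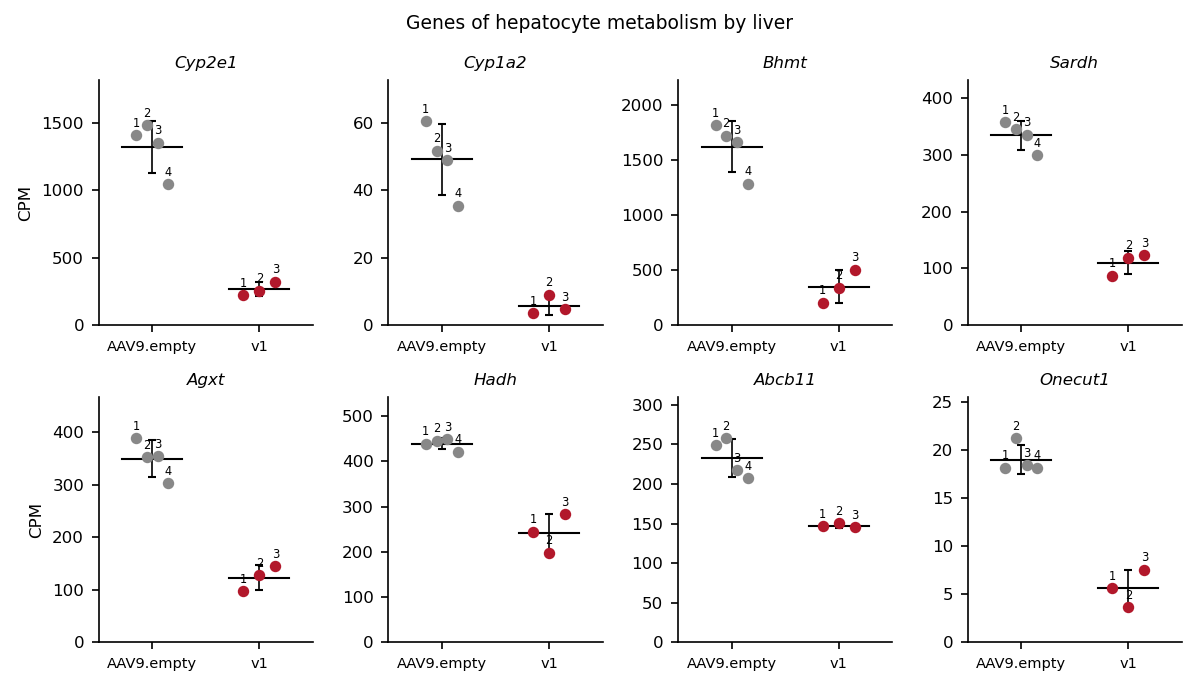
CPM (y axis, from 0) of genes of hepatocyte metabolism in each liver, numbered by replicate, with the mean and SD of 4 AAV9.empty livers in grey and 3 rAAV9-ST3GAL5.v1 livers (v1) in red. In each panel all vector livers lie below all control livers.

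Fatty acid oxidation fell and fat storage moved both ways. Of 26 genes of oxidation and ketogenesis 20 were lower (median −0.59). Hadh, Cpt2, Decr1 and Etfdh, mitochondrial enzymes of the pathway, had log2 fold changes of −0.85 (adjusted p = 0.000866), −0.72 (adjusted p = 0.00105), −0.59 (adjusted p = 0.000835) and −0.77 (adjusted p = 0.00113). Of 26 genes of fatty acid synthesis and storage, Cidec, Plin2 and Lpin2 were called higher and 10 lower, and the call of Lpin2 was lost without rAAV9-ST3GAL5.v1 replicate 1 or 3 or AAV9.empty replicate 1 or 3 (adjusted p = 0.056 to 0.082). Cidec, a protein of lipid droplet fusion, was at 26.6, 17 and 21.6 CPM with rAAV9-ST3GAL5.v1 and 0.888, 1.88, 2.75 and 3.16 CPM with AAV9.empty (log2 fold change 3.34, SE 0.327, adjusted p = 0.000215). G0s2, an inhibitor of the lipase ATGL, was at 21.3, 9.58 and 26.7 CPM with rAAV9-ST3GAL5.v1 and 125, 87, 117 and 125 CPM with AAV9.empty (log2 fold change −2.55, SE 0.301, adjusted p = 0.00053). These 2 droplet genes moved in opposite directions in every vector liver. Srebf1, which encodes the lipogenic factor SREBP-1, was at −0.93 (adjusted p = 0.000212). Of 24 cholesterol genes 9 were lower and 0 higher, with 1 higher without rAAV9-ST3GAL5.v1 replicate 3 or AAV9.empty replicate 4. The share called was 37.5%, against 28.1% of all genes tested in either direction and 14.3% lower. Mvk, mevalonate kinase, had −0.87 (adjusted p = 0.00149). In glucose and glycogen metabolism 9 of 33 genes were higher and 13 lower. Pkm, the pyruvate kinase of nonhepatic and growing cells, rose (log2 fold change 0.76, SE 0.104, adjusted p = 0.00105), and Pfkfb1, the liver form of a regulator of glycolysis, Ppp1r3b, a glycogen targeting subunit, and Slc37a4, the glucose-6-phosphate transporter, were at −1.27 (adjusted p = 0.000136), −1.18 (adjusted p = 0.000141) and −1.57 (adjusted p = 0.00124). Of 73 nuclear genes of the respiratory chain 23 were lower and 0 higher (median −0.20), and the lower count was 13 without AAV9.empty replicate 1, and 14 without rAAV9-ST3GAL5.v1 replicate 2. With the replicate number as a block it was 12. The share called in that list, 31.51%, was near the 28.1% of all genes tested in either direction, where 14.3% were lower. Of 13 mitochondrially encoded subunits mt-Co2 and mt-Co3 were called lower, and the count was 0 without rAAV9-ST3GAL5.v1 replicate 1 or 3 or AAV9.empty replicate 1 or 2, and 1 without AAV9.empty replicate 3 or 4, and 6 without rAAV9-ST3GAL5.v1 replicate 2.

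Both zones of the lobule were lower. Of 15 pericentral markers 11 were called lower and 0 higher (median −0.81), with 1 higher without rAAV9-ST3GAL5.v1 replicate 2. Of 12 periportal markers 8 were lower and Ctsc higher (median −0.86), and the lower count was 5 without rAAV9-ST3GAL5.v1 replicate 1 or AAV9.empty replicate 1. The call of Ctsc was lost without rAAV9-ST3GAL5.v1 replicate 2 or AAV9.empty replicate 1 or 2 or 3 or 4 (adjusted p = 0.0636 to 0.115). Lect2 and Gulo, pericentral genes, had log2 fold changes of −0.81 (adjusted p = 0.000148) and −0.63 (adjusted p = 0.00104), and Aldh1b1 and Hal, the histidine ammonia lyase, periportal genes, −1.37 (adjusted p = 0.00109) and −1.37 (adjusted p = 0.00254). Among 23 hepatocyte transcription factors 14 were lower and Bcl6 higher, and the call of Bcl6 was lost without rAAV9-ST3GAL5.v1 replicate 1 or 2 or 3 or AAV9.empty replicate 1 or 3 or 4 (adjusted p = 0.0555 to 0.103). Onecut1, HNF6, was at 5.61, 3.69 and 7.55 CPM with rAAV9-ST3GAL5.v1 and 18.2, 21.2, 18.4 and 18.2 CPM with AAV9.empty (log2 fold change −1.74, SE 0.205, adjusted p = 0.00053). Foxa2, a pioneer factor, was at 7.62, 6.19 and 7.87 CPM with rAAV9-ST3GAL5.v1 and 21.1, 22.4, 23.1 and 14.7 CPM with AAV9.empty (log2 fold change −1.48, SE 0.173, adjusted p = 0.000518). The groups did not overlap for either factor. Of 18 clock genes Arntl, Per2, Cry2, Tef and Hlf were lower and Nfil3 higher, the lower count being 2 without rAAV9-ST3GAL5.v1 replicate 1, and 3 without AAV9.empty replicate 3, with Hlf and Cry2 at −1.68 (adjusted p = 0.00049) and −1.01 (adjusted p = 0.000547). The share called among clock genes, 33.33%, was near the 28.1% of all genes tested. The call of Arntl was lost without rAAV9-ST3GAL5.v1 replicate 1 or 3 or AAV9.empty replicate 2 or 3 or 4 (adjusted p = 0.0573 to 0.128), that of Tef without rAAV9-ST3GAL5.v1 replicate 1 or AAV9.empty replicate 1 or 3 (adjusted p = 0.0671 to 0.0997) and that of Per2 without rAAV9-ST3GAL5.v1 replicate 1 (adjusted p = 0.0604). The growth hormone axis was lower at receptor and product. Ghr, the growth hormone receptor, was at 38, 40.6 and 47.5 CPM with rAAV9-ST3GAL5.v1 and 93.4, 88.5, 88.1 and 79.9 CPM with AAV9.empty (log2 fold change −1.05, SE 0.0964, adjusted p = 0.00018). Igf1 and its carrier subunit Igfals had log2 fold changes of −1.27 (adjusted p = 0.000436) and −1.77 (adjusted p = 0.000438), and Igfbp1, a binding protein that restrains IGF1, was at 3559.7, 3148 and 3494 CPM in the vector livers and 1107, 1074, 1762 and 1929.5 CPM in the control livers (log2 fold change 1.22, SE 0.203, adjusted p = 0.00248). In that list of 18 genes, Igfbp1, Igf1r and Cish were higher and 7 lower.

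Genes of coagulation, complement and plasma carriers moved in both directions, and the raised ones included the receptors Plaur and C5ar1. Of 30 coagulation and fibrinolysis genes 10 were called higher and 13 lower. The raised ones included the fibrinogen genes Fga, Fgb and Fgg, at 0.87, 0.99 and 0.90, and Plaur, the urokinase receptor, at 35.3, 54.7 and 21.6 CPM with rAAV9-ST3GAL5.v1 and 7.34, 5.91, 7.51 and 6.55 CPM with AAV9.empty (log2 fold change 2.46, SE 0.271, adjusted p = 0.000385). Serpinf2, α2-antiplasmin, and Serpind1, heparin cofactor II, were lower, at −0.70 (adjusted p = 0.000496) and −0.73 (adjusted p = 0.000666). Of 26 complement genes C5ar1, C3ar1 and Serping1 were higher and 9 lower. C5ar1, the receptor of C5a on myeloid cells, was at 19.5, 26 and 19.1 CPM with rAAV9-ST3GAL5.v1 and 5.93, 5.28, 3.67 and 4.51 CPM with AAV9.empty (log2 fold change 2.16, SE 0.18, adjusted p = 0.000136). C8g and Masp1 had −0.87 (adjusted p = 0.000911) and −0.75 (adjusted p = 0.00133). Of 26 plasma carriers and apolipoproteins 15 were lower and Apoc2 higher, with 2 higher without rAAV9-ST3GAL5.v1 replicate 2 or AAV9.empty replicate 3. Ttr, transthyretin, and Apoa2 were at −0.71 (adjusted p = 0.000977) and −0.66 (adjusted p = 0.00104). Apoc2 and Apoc4 had log2 fold changes of 0.84 (adjusted p = 0.00138) and −0.84 (adjusted p = 0.000384). They share 646 and 119 exon bases with the annotated gene Gm44805, so their opposite values are uncertain.

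Genes of matrix remodelling, adhesion and the cytoskeleton were mostly higher. Of 22 genes of matrix and adhesion 18 were higher and Itga5 lower (median 1.11), and the call of Itga5 was lost without rAAV9-ST3GAL5.v1 replicate 1 or 3 or AAV9.empty replicate 1 or 2 or 3 (adjusted p = 0.0569 to 0.119). Timp1, an inhibitor of matrix metalloproteinases (chromosome X, 20870166 to 20874735 in GRCm38), was at 46.4, 60.9 and 45.9 CPM with rAAV9-ST3GAL5.v1 and 1.54, 0.889, 1.35 and 2.09 CPM with AAV9.empty (log2 fold change 5.12, SE 0.218, adjusted p = 8.41e-06). It had the smallest adjusted p of all list members. Sele, E-selectin of activated endothelium, was at 18.9, 26.8 and 7.79 CPM with rAAV9-ST3GAL5.v1 and 0.187, 0.262, 0.432 and 0.291 CPM with AAV9.empty (log2 fold change 5.93, SE 0.478, adjusted p = 0.000135). Spp1, osteopontin, and Cd44, its receptor, had 1.96 (adjusted p = 0.00018) and 0.88 (adjusted p = 0.000254). Of 30 genes of keratins, cytoskeleton and annexins 18 were higher and Krt23 and Krt20 lower (median 0.65), and the call of Krt23 was lost without rAAV9-ST3GAL5.v1 replicate 1 or 2 or AAV9.empty replicate 1 or 3 (adjusted p = 0.0514 to 0.0749). Lgals3, galectin 3 (chromosome 14, 47367751 to 47386160 in GRCm38), was at 96.2, 106 and 84.7 CPM with rAAV9-ST3GAL5.v1 and 22.8, 25.3, 26.2 and 25.6 CPM with AAV9.empty (log2 fold change 1.95, SE 0.098, adjusted p = 1.9e-05). S100a11 and Anxa1 had 0.97 (adjusted p = 0.000136) and 0.80 (adjusted p = 0.000178). For Timp1 and Lgals3 the vector livers lay close to each other and far from the control livers.

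Growth factor genes moved in both directions. Of 27 growth factors and receptors 12 were higher, including the EGF receptor family ligands Areg, Ereg, Hbegf, Btc, Nrg1 and Nrg4, and Met, Inhbc, Fgf1, Angptl6 and Angptl8 lower. The ligands Egf and Tgfa of the same family did not pass, at 0.42 (adjusted p = 0.54) and −0.01 (adjusted p = 0.982). The call of Angptl8 was lost without rAAV9-ST3GAL5.v1 replicate 1 or AAV9.empty replicate 3 (adjusted p = 0.056 to 0.0917). Nrg1, neuregulin 1, was at 14.1, 9.19 and 7.26 CPM with rAAV9-ST3GAL5.v1 and 1.4, 1.2, 0.918 and 1.07 CPM with AAV9.empty (log2 fold change 3.15, SE 0.265, adjusted p = 0.000136). Fst, follistatin, which binds activin, was at 48.2, 38.7 and 44 CPM with rAAV9-ST3GAL5.v1 and 8.93, 13.7, 11.6 and 15.1 CPM with AAV9.empty (log2 fold change 1.83, SE 0.164, adjusted p = 0.000162). Tnfrsf12a, the TWEAK receptor, and Pdgfb had 2.15 (adjusted p = 0.000136) and 1.14 (adjusted p = 0.000212). Each vector liver exceeded each control liver for these 4 genes. In prostaglandin and leukotriene metabolism Ptgs2, Ptges, Alox5ap and Alox5 were higher and Hpgd, which inactivates prostaglandins, and Ptgs1 lower, of 19 genes. The share called in that list, 31.58%, was near the 28.1% of all genes tested. Ptgs2, the inducible cyclooxygenase, was at 1.49, 8.25 and 0.609 CPM in the vector livers and 0, 0.105, 0 and 0.146 CPM in the control livers (log2 fold change 5.66, SE 1.12, adjusted p = 0.00574), and Hpgd was at 13.2, 10.5 and 21 CPM in the vector livers and 51.2, 55, 44.7 and 44.2 CPM in the control livers (log2 fold change −1.70, SE 0.207, adjusted p = 0.000621). Without liver 2 the log2 fold change of Ptgs2 was 3.94 (adjusted p = 0.0082), and without AAV9.empty replicate 4 it was 6.42 (adjusted p = 0.0153). The call of Ptges was lost without rAAV9-ST3GAL5.v1 replicate 2 (adjusted p = 0.0548). Of 32 cell cycle genes Cdc20 and Mcm6 were called lower and 0 higher. The lower count was 0 without rAAV9-ST3GAL5.v1 replicate 1 or AAV9.empty replicate 1, and the higher count 1 without AAV9.empty replicate 4, and 2 without rAAV9-ST3GAL5.v1 replicate 2. The call of Cdc20 was lost without rAAV9-ST3GAL5.v1 replicate 1 or AAV9.empty replicate 1 (adjusted p = 0.0551 to 0.0635), and that of Mcm6 without rAAV9-ST3GAL5.v1 replicate 1 or AAV9.empty replicate 1 (adjusted p = 0.0608 to 0.0631). Of 30 genes of autophagy and lysosomes 7 were higher and Npc1 lower, the higher count being 4 without rAAV9-ST3GAL5.v1 replicate 1 or 3 or AAV9.empty replicate 2 or 3, and the lower count 0 without rAAV9-ST3GAL5.v1 replicate 1, and 3 without rAAV9-ST3GAL5.v1 replicate 3 or AAV9.empty replicate 4. The share called among autophagy and lysosome genes, 26.67%, was near the 28.1% of all genes tested. The call of Npc1 was lost without rAAV9-ST3GAL5.v1 replicate 1 (adjusted p = 0.0622). Sqstm1, the autophagy receptor p62, was at 393, 459 and 366 CPM with rAAV9-ST3GAL5.v1 and 218, 199.7, 236 and 228 CPM with AAV9.empty (log2 fold change 0.89, SE 0.0995, adjusted p = 0.000398), with no overlap, and Gla, lysosomal α-galactosidase A, had 1.15 (adjusted p = 0.000688).

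**Figure D5:**
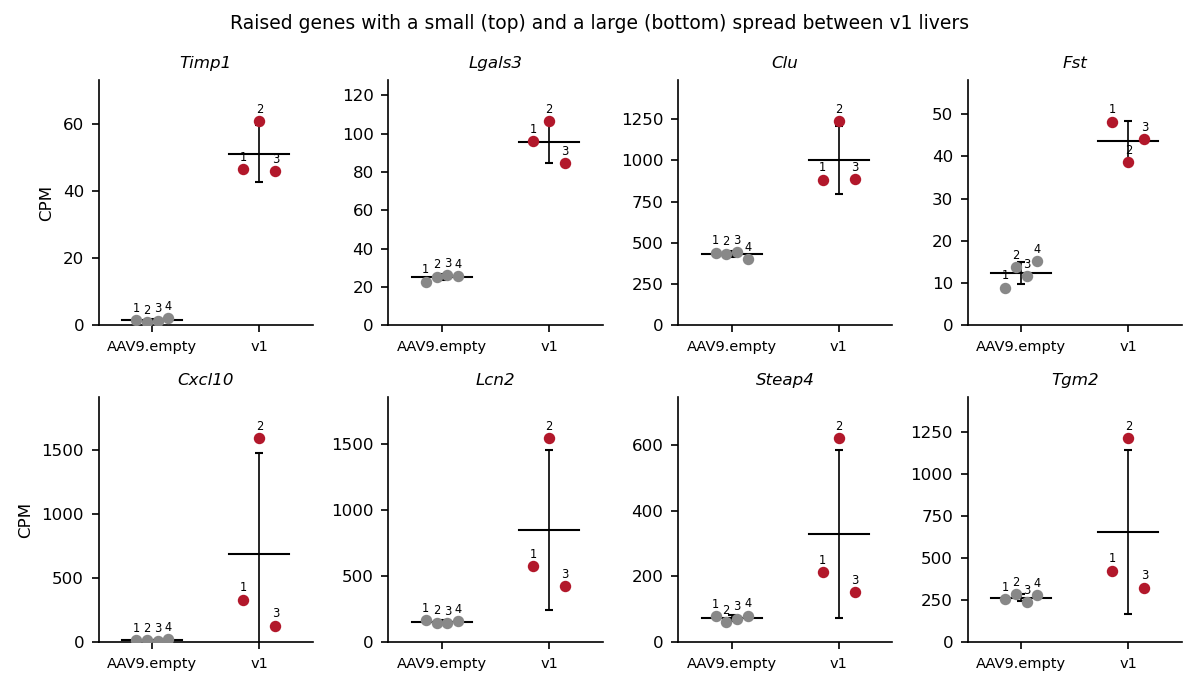
CPM (y axis, from 0) in each liver, numbered by replicate, with the mean and SD (bars cut at 0) of 4 AAV9.empty livers in grey and 3 rAAV9-ST3GAL5.v1 livers (v1) in red. Timp1, Lgals3, Clu and Fst vary by less than 1.5-fold between the vector livers, while liver 2 stands above the others for Cxcl10, Lcn2, Steap4 and Tgm2.

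Markers of other cells moved alongside these genes, and their part in the results was not tested. Of 12 neutrophil markers 11 were higher and 0 lower (median 0.57), and their sum was 2651 to 2932 CPM with the vector and 1765 to 1919 CPM with the capsid. S100a8 and S100a9 were at 0.80 and 0.80, and Ly6g did not pass (adjusted p = 0.484). Of 12 Kupffer cell and monocyte markers, the myeloid genes Itgam, Ccr2, Ly6c2 and Lyz2 were higher and the resident Kupffer cell genes Clec4f, Vsig4 and Timd4 and the receptor Csf1r lower, while the sum was 1175 to 1500 and 1173 to 1584 CPM. The markers Marco, Cd5l, Adgre1 and Cd68 did not pass, at 0.34 (adjusted p = 0.498), −0.20 (adjusted p = 0.29), −0.22 (adjusted p = 0.229) and 0.27 (adjusted p = 0.0667). Clec4f was at 78.9, 90.2 and 84.3 CPM with rAAV9-ST3GAL5.v1 and 186, 193, 194 and 173 CPM with AAV9.empty (log2 fold change −1.13, SE 0.083, adjusted p = 9.64e-05), with no overlap. Of 8 T and NK cell markers, Prf1, Gzmb, Ncr1, Gzma and Nkg7 were higher and Cd4 lower, with a sum of 89.2 to 105 against 40.6 to 55.7 CPM, and 3 were higher without rAAV9-ST3GAL5.v1 replicate 1. The raised members are genes of cytotoxic and NK cells. The T cell genes Cd3e, Cd3d and Cd8a were too low to be tested. Cd3g and Klrb1c did not pass, at 0.54 (adjusted p = 0.0877) and 0.63 (adjusted p = 0.191). The call of Cd4 was lost without rAAV9-ST3GAL5.v1 replicate 1 or 2 or 3 or AAV9.empty replicate 1 or 2 (adjusted p = 0.0628 to 0.0983), that of Timd4 without rAAV9-ST3GAL5.v1 replicate 1 or 3 or AAV9.empty replicate 1 or 2 or 3 or 4 (adjusted p = 0.0517 to 0.119), that of Epcam without rAAV9-ST3GAL5.v1 replicate 1 or 3 or AAV9.empty replicate 1 or 2 or 4 (adjusted p = 0.0632 to 0.0863), that of Prf1 without AAV9.empty replicate 2 (adjusted p = 0.0566), that of Gzma without rAAV9-ST3GAL5.v1 replicate 1 (adjusted p = 0.0539) and that of Ncr1 without rAAV9-ST3GAL5.v1 replicate 1 (adjusted p = 0.0584). Cholangiocyte markers summed to 122 to 175 against 52.5 to 79.3 CPM, but Krt19 and Krt7, which define those cells, did not pass, while Sox9, Spp1 and Epcam were called higher. Of 10 sinusoidal endothelial markers Lyve1 and Fcgr2b were higher and Stab1, Stab2, Cdh5, Oit3 and Gpr182 lower, the higher count being 1 without rAAV9-ST3GAL5.v1 replicate 1 or AAV9.empty replicate 1 or 2 or 4, and the lower count 1 without rAAV9-ST3GAL5.v1 replicate 1, and 2 without AAV9.empty replicate 1 or 2 or 3. The call of Stab1 was lost without rAAV9-ST3GAL5.v1 replicate 1 or AAV9.empty replicate 1 or 2 or 3 or 4 (adjusted p = 0.0513 to 0.15), that of Stab2 without rAAV9-ST3GAL5.v1 replicate 1 (adjusted p = 0.0657), that of Cdh5 without rAAV9-ST3GAL5.v1 replicate 1 or 3 or AAV9.empty replicate 1 or 2 or 3 (adjusted p = 0.0808 to 0.153), that of Gpr182 without rAAV9-ST3GAL5.v1 replicate 1 or AAV9.empty replicate 1 or 2 or 3 (adjusted p = 0.0575 to 0.119) and that of Fcgr2b without rAAV9-ST3GAL5.v1 replicate 1 or AAV9.empty replicate 1 or 2 or 4 (adjusted p = 0.0564 to 0.0611). Of 10 stellate cell and fibroblast markers Acta2, Des and Rgs5 were higher and Reln lower, with Col1a1, Col1a2 and Col3a1 not passing, and 1 was higher without AAV9.empty replicate 2. The call of Des was lost without rAAV9-ST3GAL5.v1 replicate 1 or 3 or AAV9.empty replicate 1 or 2 or 4 (adjusted p = 0.0723 to 0.112), and that of Acta2 without AAV9.empty replicate 2 or 3 (adjusted p = 0.0511 to 0.0521). Of 10 erythroid markers Slc4a1 was called higher, a call lost without rAAV9-ST3GAL5.v1 replicate 1 or 3 or AAV9.empty replicate 1 or 2 or 3 (adjusted p = 0.0883 to 0.106). No B cell marker of 10 and no megakaryocyte marker of 9 was called, and Prss34 and Mcpt8 of 7 mast cell and basophil markers were lower, and the call of Mcpt8 was lost without rAAV9-ST3GAL5.v1 replicate 1 or 3 or AAV9.empty replicate 3 (adjusted p = 0.0614 to 0.0922). The share called among mast cell and basophil markers, 28.57%, was near the 28.1% of all genes tested. Without rAAV9-ST3GAL5.v1 replicate 2, 1 B cell marker was lower.

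The 15 largest rises by fold outside the lists, among genes at 5 CPM or more whose groups did not overlap, included Acod1, Lif, Gzmc, Egr2, Cxcl9, Nos2 and Pagr1a. Acod1, which makes itaconate in macrophages, had a log2 fold change of 6.40 (adjusted p = 0.00332). Lif, a cytokine of the IL-6 family, was at 21.3, 24 and 12.8 CPM with rAAV9-ST3GAL5.v1 and 0.187, 0.471, 0.162 and 0.388 CPM with AAV9.empty (log2 fold change 5.99, SE 0.339, adjusted p = 3.25e-05). Gzmc, granzyme C, had 4.65 (adjusted p = 0.000177), and Egr2, an immediate-early factor, 4.89 (adjusted p = 0.000351), or 4.11 (adjusted p = 4.08e-05) without liver 2. Cxcl9, an interferon-γ induced chemokine, was at 13.7, 284 and 10.6 CPM in the vector livers and 4.91, 2.41, 3.84 and 3.54 CPM in the control livers (log2 fold change 4.81, SE 1.09, adjusted p = 0.0106). Liver 2 carried nearly all of its rise, and without it the log2 fold change was 1.73 (adjusted p = 0.000639). The same omission left 3.39 (adjusted p = 0.00264) for Nos2, the inducible nitric oxide synthase at 5.58 with all livers, and 4.25 (adjusted p = 0.000527) for Acod1. Pagr1a passed with 6.15 (adjusted p = 0.000215), but it was at 0 to 9.50 CPM in PBS livers, and it shares 1412 exon bases with Gm42742, so its value is uncertain.

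The 15 largest falls by fold outside the lists, by the same rule, included Car3, Selenbp2 and Prok1. Gm47283 and Erdr1, whose groups overlap, had lower fitted values, which rest on their zeros. Car3, a carbonic anhydrase, was at 4.7, 11.8 and 7.35 CPM with rAAV9-ST3GAL5.v1 and 67.5, 75.9, 80.4 and 85 CPM with AAV9.empty (log2 fold change −3.27, SE 0.26, adjusted p = 0.000134). Selenbp2, a selenium-binding protein, was at 6.71, 9.24 and 10.8 CPM with rAAV9-ST3GAL5.v1 and 68.8, 61.3, 47.5 and 57.4 CPM with AAV9.empty (log2 fold change −2.71, SE 0.177, adjusted p = 5.15e-05). The lowest control liver was more than 4-fold above the highest vector liver for both. Prok1, prokineticin 1, Coq8a, a kinase-like protein of coenzyme Q synthesis, and Slc25a48, a mitochondrial carrier, had log2 fold changes of −3.01 (adjusted p = 0.000122), −2.83 (adjusted p = 0.000784) and −3.22 (adjusted p = 0.000212). Hsd3b1, a steroid dehydrogenase, Vipr1, a receptor of vasoactive intestinal peptide, and Acot3, a peroxisomal thioesterase, were at −2.39 (adjusted p = 0.000416), −2.60 (adjusted p = 0.00158) and −2.61 (adjusted p = 0.00117). Without rAAV9-ST3GAL5.v1 replicate 3, Coq8a, Vipr1 and Acot3 were at −3.55 (adjusted p = 3.22e-05), −3.32 (adjusted p = 0.00014) and −3.23 (adjusted p = 0.000154). Prok1 shares 1146 exon bases with A630076J17Rik, so its value is uncertain. The kit was not stranded, and exons of Coq8a, Nrg4, Afmid, Pfkfb1, Hspe1, Dnaja1, Cdc20, Npc1 and Stab1 share 53 to 608 bases with a gene on the other strand of similar or higher level, so these values are uncertain too. Akr1c20, Nrep, Timd2 and Gckr, the glucokinase regulator, had among the smallest adjusted p-values of lowered genes, with −1.45 (adjusted p = 4.62e-05), −1.62 (adjusted p = 5.15e-05), −1.51 (adjusted p = 6.03e-05) and −1.26 (adjusted p = 9.46e-05).

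Among genes changed at least 2-fold, most of the largest rises in mean CPM were in secreted proteins. Igfbp1, Serpina3n, an acute-phase inhibitor, Lcn2, lipocalin 2, Cxcl10, Clu, clusterin, Lrg1, H2-D1, a class I antigen, and Tgm2, transglutaminase 2, gained the most. Clu was at 884, 1240.0 and 886 CPM with rAAV9-ST3GAL5.v1 and 439.9, 434, 442 and 402 CPM with AAV9.empty (log2 fold change 1.24, SE 0.124, adjusted p = 0.000233). H2-D1 was at 677, 900.2 and 822 CPM with rAAV9-ST3GAL5.v1 and 409, 454, 358 and 355 CPM with AAV9.empty (log2 fold change 1.03, SE 0.121, adjusted p = 0.000511). Tgm2 was at 427, 1216 and 326 CPM in the vector livers and 256, 288, 241 and 281 CPM in the control livers (log2 fold change 1.32, SE 0.374, adjusted p = 0.0281). Clu and H2-D1 rose in all 3 livers, whereas the rise of Tgm2 came mainly from liver 2, and its log2 fold change without that liver was 0.51 (adjusted p = 0.0115). The call of Tgm2 was lost without AAV9.empty replicate 1 or 2 or 3 or 4 (adjusted p = 0.0611 to 0.0756). Without liver 2 Lcn2 was at 1.68 (adjusted p = 1.83e-05) and Cxcl10 at 3.68 (adjusted p = 3.38e-05), against 2.45 and 5.25 with it. Serpina1e, an α1-antitrypsin copy, Bhmt, Cyp2e1, Acsl1, a long-chain acyl-CoA synthetase, Cps1, Sephs2 and Rdh7, a retinol dehydrogenase, were among those that lost the most. The call of Cps1 was lost without rAAV9-ST3GAL5.v1 replicate 1 (adjusted p = 0.0634). Serpina1e was at 1087, 1776 and 1228 CPM with rAAV9-ST3GAL5.v1 and 3785, 3964, 3243 and 2957 CPM with AAV9.empty (log2 fold change −1.34, SE 0.178, adjusted p = 0.000905), and its family of near-identical copies may share reads. Acsl1, Sephs2, which makes selenophosphate, and Rdh7 had −1.60 (adjusted p = 0.00905), −1.23 (adjusted p = 0.00216) and −1.11 (adjusted p = 0.000585).

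A vector with the same promoter and another cargo gave a further comparison. The vector livers were also tested against 4 livers given rAAV9.CB.EGFP, in which the same promoter drives EGFP, and 4133 of 14875 genes were called (27.8%). Aen, an exonuclease and p53 target, and Ccng1, cyclin G1 and a p53 target, were at 57.9 to 63 and 57.7 to 74.1 CPM with CB.EGFP. The log2 difference of rAAV9-ST3GAL5.v1 from CB.EGFP was 0.16 (SE 0.0649, adjusted p = 0.0932) for Aen and 0.28 (SE 0.119, adjusted p = 0.109) for Ccng1, whereas against AAV9.empty it was 1.47 and 2.01. Rps27l differed from CB.EGFP by 0.07 (SE 0.0931, adjusted p = 0.593). Cdkn1a, p21, was at 124 to 131 CPM with CB.EGFP, and the vector livers differed from CB.EGFP by 0.59 (SE 0.0673, adjusted p = 0.000681). Timp1, Atf3 and Chac1 were at 0.924 to 1.3, 2.51 to 4.31 and 0.145 to 0.784 CPM with CB.EGFP, overlapping the range of AAV9.empty. Their log2 differences from CB.EGFP were 5.45 (SE 0.161, adjusted p = 8.13e-07), 3.80 (SE 0.209, adjusted p = 0.000116) and 3.54 (SE 0.407, adjusted p = 0.000696). Srxn1, Nrg1 and Cidec differed from CB.EGFP by 1.37 (SE 0.144, adjusted p = 0.000542), 2.85 (SE 0.299, adjusted p = 0.000542) and 2.92 (SE 0.226, adjusted p = 0.00028). Among lowered genes Cyp2e1, Bhmt and Selenbp2 were at 1071 to 1289, 1325 to 1813 and 36.8 to 61 CPM with CB.EGFP, and differed by −2.16 (SE 0.135, adjusted p = 0.00018), −2.16 (SE 0.267, adjusted p = 0.000847) and −2.46 (SE 0.207, adjusted p = 0.000292). The 2 comparisons share the rAAV9-ST3GAL5.v1 livers. Gm47283 and Erdr1, without a count in the vector livers, also had none in CB.EGFP replicates 1, 2 and 4, and had counts in replicate 3. The 2 control groups thus differ in this trait, and its part in either comparison was not tested.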

How the data were processed

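RNA-Seq libraries from 7 of 22 livers were compared. The authors trimmed reads with Trimmomatic, aligned them with STAR to mm10 and estimated levels with RSEM. The deposited expected counts are RSEM's estimated counts per gene, not scaled for depth, and the deposited TPM values are levels scaled by the authors for transcript length and depth. TPM served for alternatives only. Reads of genes with shared exons or near-identical copies are divided by RSEM's model, and the kit is not stranded.

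Expected counts were rounded, since 5.69% were not whole, and fitted in R 4.3.3 with edgeR 4.0.16 (TMM, filterByExpr, quasi-likelihood F-test, Benjamini-Hochberg adjustment over 14876 genes). A gene was called if its adjusted p did not exceed 0.05, and was counted as changed if it also differed at least 2-fold. The SE is the absolute log2 fold change divided by the square root of F. Positions are from GENCODE vM21 (GRCm38), promoters from RefSeq (GRCm38.p6), which matched 11246 of the genes tested by symbol. Each table holds 55291 genes.

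Groups came from the treatment labels. The members and the lists (38 gene lists, 11 marker lists) were chosen with earlier results of these data known. Genes were named by rule: up to 4 members of a list with the smallest adjusted p, members that complete a count of 5 or fewer, the 15 largest fold changes in each direction outside the lists at 5 CPM or more whose groups did not overlap, the 8 largest rises and falls in CPM, the 5 smallest adjusted p-values in each direction outside the lists, and St3gal5, of which the text gives a part. Alb, Hnf4a, Atf4, Asns, Hspa5, Xbp1, Nqo1, Gclm, Hmox1, Trib3, Fga, Fgg, Krt7, Krt19, Ly6g, the EGF family ligands, the collagens, Gm47283, Erdr1 and other genes listed for a promoter match were picked with their values in view. Alternatives were DESeq2 1.42.0, its size factors, other filters on low counts, all 6 groups in one fit, a replicate block, limma 3.58.1 on TPM, no minimum fold and the leaving out of each library. Some genes that the naming rule selects are not reported here.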

Additional observations from a re-analysis of the deposited data

Results flagged for a closer look

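In 13 of the 264 genes named, 1 of the 4 AAV9.empty livers lay far from the other three by Dixon's test at the 95% level, a share that chance gives in about 1 in 20 groups. In AAV9.empty replicate 1 these were Acot3 (24.3 CPM, the highest, with the nearest at 15.6), Angptl6 (17.4 CPM, the lowest, with the nearest at 19), Cyp4f14 (6.82 CPM, the highest, with the nearest at 3.3), Nfe2l2 (51.2 CPM, the highest, with the nearest at 49) and Tgfa (18.9 CPM, the lowest, with the nearest at 20.8). In AAV9.empty replicate 2 these were Oit3 (49.6 CPM, the highest, with the nearest at 45.9) and Onecut1 (21.2 CPM, the highest, with the nearest at 18.4). In AAV9.empty replicate 3 these were Epcam (5.89 CPM, the highest, with the nearest at 2.06), Shmt2 (137 CPM, the lowest, with the nearest at 158) and Sox9 (5.78 CPM, the highest, with the nearest at 4.27). In AAV9.empty replicate 4 these were Atf5 (601 CPM, the lowest, with the nearest at 760.0), C8g (65.1 CPM, the lowest, with the nearest at 82.3) and Hspe1 (171 CPM, the highest, with the nearest at 153).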

How the results depend on the processing

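The 1190 changed genes (627 higher, 563 lower) numbered 931 to 1490 with 1 library left out, 483 to 764 of them higher and 416 to 726 lower. With limma on log2(TPM + 1) they numbered 634 (379 higher, 255 lower), and with no filter 571 (345 and 226). With limma on log2(TPM + 0.1) there were 857, with 348 lower. With no minimum fold change there were 4183 (2049 higher, 2134 lower). DESeq2 gave 1210, and the other settings 1104 to 1286. The cause of these shifts was not tested. Of 264 genes named, 175 kept direction and call under all alternatives that gave a value, and 0 reversed.

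The replicate numbers did not pair the livers: same-numbered livers correlated in their deviations at −0.0739, 0.05 and 0.096. With the number as a replicate block 1104 genes changed, 563 higher and 541 lower. Against AAV9.empty replicate 4 alone, a comparison chosen after seeing the data, the medians of 15 of 49 lists moved by over 1.5 times, from −0.65 to −0.43 for hepatocyte markers, −0.25 to −0.16 for glucose, −0.22 to −0.07 for coagulation, −0.25 to −0.10 for complement and −0.05 to −0.32 for cholesterol, and those of heat shock, autophagy, erythroid and megakaryocyte genes changed sign.

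With limma on log2(TPM + 1) and no filter, the lower count went from 23 to 5 for the respiratory chain, 20 to 12 for fatty acid oxidation, 15 to 8 for peroxisome, 15 to 6 for plasma carriers, 14 to 7 for transcription factors, 13 to 7 for glucose, 11 to 7 for transporters and for pericentral markers, 9 to 4 for cholesterol, 8 to 2 for hepatocyte markers, 8 to 4 for periportal markers, 5 to 2 for the clock, 5 to 0 for endothelium, 4 to 0 for Golgi and 4 to 1 for heat shock. The higher count went from 7 to 3 for autophagy. The block left 12 lower for the respiratory chain, 5 higher for Golgi, 2 higher for metal handling and 0 tRNA synthetases.

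With 3 and 4 livers, small changes are at the limit of the test, and depth bounds the precision of genes near 1 CPM.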
